A study of Caenorhabditis elegans with 24 samples.

Results

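The 26S proteasome is the protease that breaks down ubiquitin-tagged proteins, and its subunits are encoded in Caenorhabditis elegans by the genes named pas, pbs, rpt and rpn. All 33 genes whose symbol is one of these stems followed by a number were taken from a table of 46778 gene IDs. They comprise 14 genes of the core particle, with 7 alpha ring genes (pas-1 to pas-7) and 7 beta ring genes (pbs-1 to pbs-7), and 19 genes of the regulatory particle. The regulatory genes are the 6 base ATPases rpt-1 to rpt-6, the other base subunits rpn-1, rpn-2, rpn-10 and rpn-13, and 9 lid genes, among them the paralogs rpn-6.1 and rpn-6.2. RNA was sequenced from 24 libraries of sorted cells, 3 for each of 8 groups. The Venus-positive fraction is labelled distal tip cells (DTCs) and the Venus-negative fraction other tissues, and each was taken from late L3 larvae, early L4 larvae, late L4 larvae and adults. All animals were hermaphrodites labelled wild-type that carried the Venus label in the DTC and were grown at 20 °C on OP50, an Escherichia coli strain, so both fractions of a stage come from labelled worms. The Venus-negative fraction is a mixture of tissues, and neither the promoter that drives Venus nor the origin of the 3 samples of a group is given in the sources used here, so p-values measure the spread between these samples, which may be technical.

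In the proteasome a barrel of stacked rings forms the core particle. The outer alpha rings gate the entry, and the inner beta rings hold the active sites. The regulatory particle caps the barrel. Its base contains a ring of ATPases that unfold the substrate, together with scaffold subunits and ubiquitin receptors, and its lid removes the ubiquitin chain. In C. elegans a form of the transcription factor SKN-1, called SKN-1A, drives proteasome subunit genes when proteasome function is low, after it is processed by the peptide N-glycanase PNG-1 and the protease DDI-1. The DTC is a somatic cell that caps each gonad arm, leads its migration through the larval stages and serves as the niche of germline stem cells.

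Total counts ran from 8391423 to 18045720 per library. Of the 12 DTC marker genes, 12 were called higher in DTCs than in other cells as the mean of the 4 stages, beside 16.3% of all genes. In adults 8 were called higher, beside 8.19% of all genes. Their summed level in adults was 2908 to 4042 CPM in DTCs against 989 to 1619 CPM in other cells. CPM, the unit of all levels here, are counts scaled to a common library total, with library sizes adjusted by the trimmed mean of M-values (TMM). None of the 12 DTC markers was at 0 in any group. Other-cell late L3 replicate 3 and other-cell late L4 replicate 3 stood apart from their groups in sperm markers. The first had 2984 CPM of the 49 sperm markers summed, against 32.6 and 40.3 CPM in the other 2 libraries of its group, and the second had 25590 CPM against 10740 and 10290 CPM. Several results are therefore also given without these 2 libraries, which are the ones meant below by libraries that stood apart. Other libraries also differed from their groups. Ribosomal RNA took 11.2% of counts in adult other-cell replicate 1, against 33.2 and 32.6% in the other 2. The DTC marker mig-21 had 700 CPM in DTC late L3 replicate 3, against 50.8 and 53.5 CPM in the other 2. Such libraries were left out only 1 at a time.

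All 33 genes were expressed in every library and passed the filter on low counts. The lowest count of a member was 64, for rpn-6.2, and 130 for the remaining 32 genes. Per kilobase of exon, the mean level over the 24 libraries was highest for the beta ring gene pbs-7, at 134 CPM per kb, followed by pbs-1 at 119.9 and the alpha ring gene pas-3 at 118 CPM per kb. The lowest was rpn-6.2 at 22.98 CPM per kb, and the next were the ubiquitin receptor gene rpn-13 at 40.4 and the lid deubiquitinase gene rpn-11 at 40.6 CPM per kb. Across the 8 groups the median of the 32 genes other than rpn-6.2 lay between 58.1 and 97.8 CPM per kb. The median core gene stood above the median regulatory gene, rpn-6.2 left out, in 23 of 24 libraries on this per-length scale, at 57.5 to 129 CPM per kb for the core and 43.7 to 96.8 CPM per kb for the regulatory particle.

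The 33 genes lie on chromosomes I (10 genes), II (7), III (8), IV (3) and V (5). All are annotated as protein coding, and counts are over their exons. The exons of rpn-7 share 394 bases, 20.7% of their length, with nemt-1 on the opposite strand, and those of rpn-9 share 10.6%, pbs-4 9.1% and rpt-4 7.0% with opposite-strand genes. The other members share at most 2.8% on the opposite strand, while pbs-7 shares 70 exon bases with K07A12.5 on its own strand. Whether counting used the strand is not given in the sources used here, so the counts of overlapping genes may include each other's reads.

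**Figure D1:**
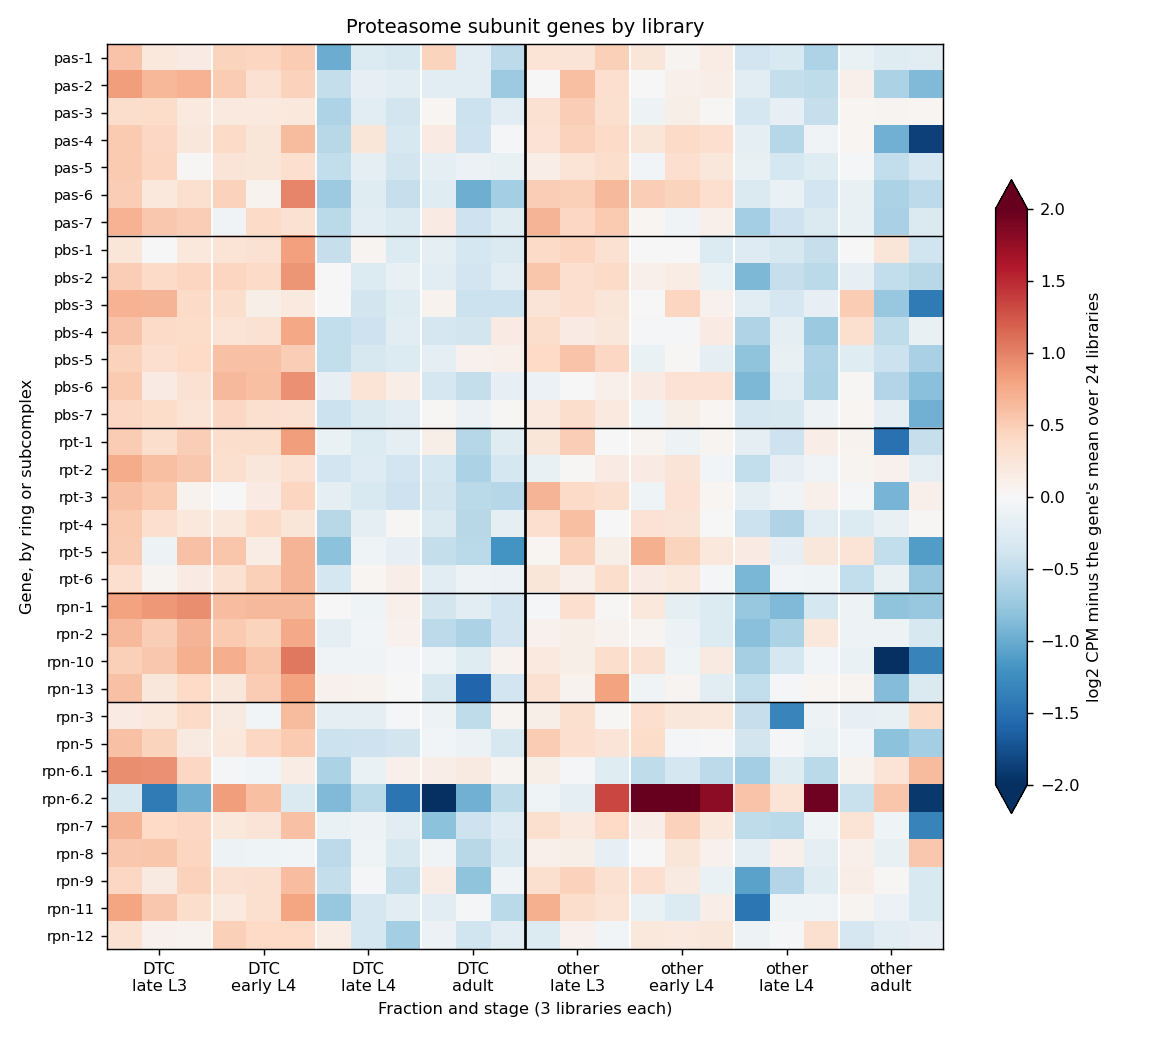
Level of each of the 33 genes in each of the 24 libraries, as log2 CPM minus the gene's own mean over all libraries; columns are grouped by fraction and stage, DTCs to the left of the black line, and rows by ring or subcomplex. Red is above and blue below the gene's mean, and most rows turn from red to blue between early and late L4 in DTCs, while rpn-6.2 is reddest in early L4 other cells.

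Proteasome transcripts made up a smaller share of the DTC transcriptome at late L4 than at early L4, and genes of both the core and the regulatory particle were among those that fell. The summed level of the 33 genes was 2412, 2731 and 2705 CPM in late L4 DTCs, against 3904, 3825 and 4525 CPM in early L4 DTCs. The 3 late L4 libraries lay below all 3 early L4 libraries, and the ratio of the means was 0.640. In DTCs the sum was 4083 to 4482 CPM at late L3, 3825 to 4525 at early L4, 2412 to 2731 at late L4 and 2334 to 2670 CPM in adults. The late L3 and early L4 ranges overlapped, and so did those of late L4 and adults on this scale.

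The core and the regulatory particle each showed this drop. Core genes summed to 787, 968 and 904 CPM in late L4 DTCs, against 1412, 1356 and 1596 CPM at early L4, a ratio of means of 0.609. Regulatory genes summed to 1625, 1763 and 1801 CPM in late L4 DTCs, against 2492, 2470 and 2929 CPM at early L4, a ratio of 0.658. Without any scaling, the 33 genes took 0.214, 0.266 and 0.236% of all counts in late L4 DTCs, against 0.389, 0.378 and 0.388% in early L4 DTCs, so the raw shares did not overlap either. In adult DTCs the raw shares were 0.165, 0.190 and 0.153%, all below those of late L4 DTCs, with a ratio of means of 0.71, beside 0.963 for the scaled sums.

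**Figure D2:**
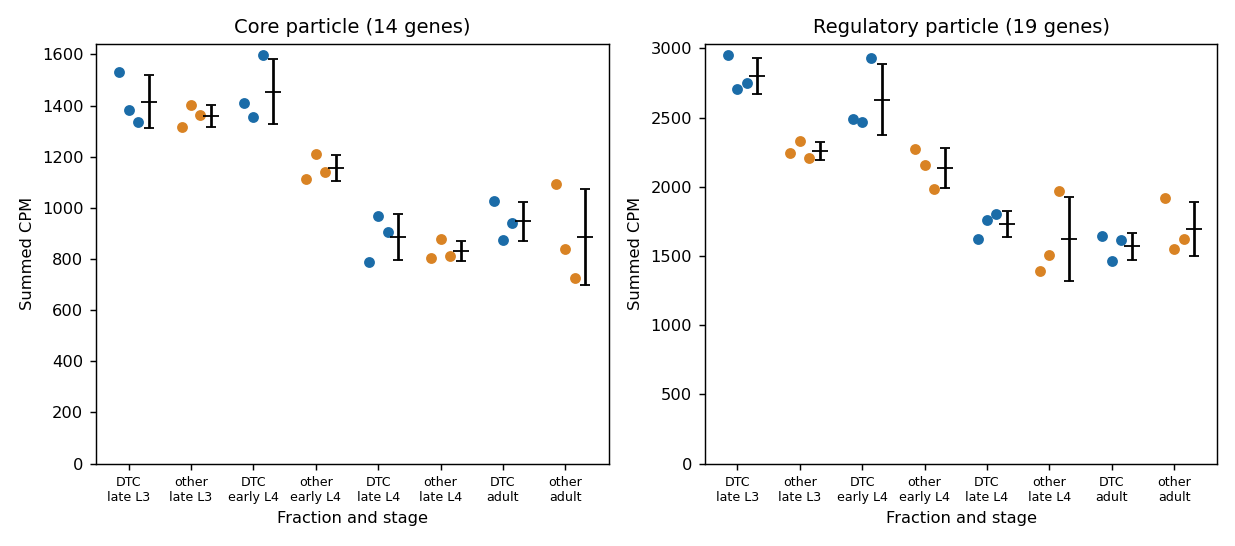
Summed CPM of the 14 core genes (left) and of the 19 regulatory genes (right) in each library, by stage and fraction (blue, DTCs; orange, other cells); black marks are the mean and SD of 3 libraries. In both panels the late L4 and adult DTC libraries lie below the late L3 and early L4 DTC libraries.

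Gene by gene, the log2 fold change of late L4 over early L4 in DTCs was negative for all 33 members, between -1.37 and -0.21. The median was -0.64 for the 33 genes, -0.68 for the core and -0.63 for the regulatory particle, beside a median of 0 over all 16887 genes tested. In 30 of 33 genes the 3 late L4 libraries all lay below the 3 early L4 libraries, as they did in 15.6% of all genes. The other 3 genes were the lid genes rpn-3, rpn-6.1 and rpn-8. By the edgeR quasi-likelihood test with Benjamini-Hochberg adjustment over all genes, 7 of the 33 genes passed an adjusted p of 0.05 and all 7 were lower at late L4, where 1.77% of all genes tested were called lower and 3.8% higher. Under the relative log expression (RLE) scaling all 33 fold changes were again negative, with a median of -0.49, while the median of all genes moved to 0.125. The number of calls was less stable than the direction: 12 members were called lower by DESeq2, 3 under RLE scaling and 0 when no filter on low counts was used. With each of the 24 libraries left out in turn it ran from 1 to 9 members, and leaving out both libraries that stood apart gave 2.

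The beta ring genes called lower included 2 that carry active sites. The gene pbs-5 encodes the subunit with the chymotrypsin-like active site and lies on chromosome I at 14719167 to 14720477 of ce11, minus strand. It had 74.1, 83.6 and 85.4 CPM in late L4 DTCs, against 157, 156 and 147 CPM in early L4 DTCs. The highest late L4 library was thus well below the lowest early L4 library, and the log2 fold change was -0.92 ± 0.20, adjusted p = 0.00675. This was the only call among the 7 that held in all 24 fits with 1 library left out, with values of -0.99 to -0.85; it was lost without a filter on low counts, at an adjusted p of 0.158.

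The trypsin-like subunit gene pbs-2 had 51.6, 42.9 and 46.8 CPM in late L4 DTCs, against 69.8, 67.6 and 95.6 CPM in early L4 DTCs (-0.72 ± 0.21, adjusted p = 0.0465). The groups did not overlap, although the call was lost in 20 of the 24 fits with a library left out. The caspase-like subunit gene pbs-1 had 69.6, 99.6 and 79.03 CPM at late L4 and 116, 119 and 169 CPM at early L4 in DTCs. Its libraries did not overlap either, and its change of -0.70 ± 0.21, adjusted p = 0.0583 missed the threshold. The remaining beta ring gene with a call, pbs-4, had 46.4, 48.9 and 56.5 CPM at late L4 and 78.9, 80.4 and 112 CPM at early L4 (-0.84 ± 0.24, adjusted p = 0.0467), a call lost in 16 of 24 such fits. At the other stages pbs-4 had 97.0, 85.2 and 84.0 CPM in DTCs at late L3, against 83.2, 73.3 and 76.4 CPM in other cells, and 51.9, 50.7 and 73.2 CPM in adult DTCs, against 81.03, 46.0 and 58.6 CPM in adult other cells. In other cells it had 43.1, 57.4 and 38.9 CPM at late L4, against 63.6, 63.5 and 73.0 CPM at early L4. The DTC libraries were all above those of other cells at late L3 and early L4, and the fractions overlapped at late L4 and in adults.

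In the alpha ring pas-6 had 41.2, 57.7 and 49.6 CPM in late L4 DTCs, against 93.9, 71.8 and 134 CPM in early L4 DTCs, with early L4 replicate 3 the highest of the 24 libraries. Its log2 fold change was -1.01 ± 0.25, adjusted p = 0.0176, and among the 24 fits with a library left out the call was lost without DTC early L4 replicate 3 and without DTC late L4 replicate 1, with adjusted p up to 0.131. The gene pas-1 had 34.3, 56.7 and 54.9 CPM at late L4, against 92.6, 91.7 and 97.2 CPM at early L4 (-0.95 ± 0.24, adjusted p = 0.0247), and its late L4 replicate 1 was the lowest of the DTC libraries. All 14 core genes were separated between the 2 stages in DTCs, with late L4 lower, beside 15.6% of all genes. In other cells 12 of the 14 were separated in the same direction, beside 12.9% of all genes.

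At late L3 pas-6 had 95.8, 79.2 and 84.8 CPM in DTCs, against 96.0, 94.8 and 107 CPM in other cells, and in adults 57.6, 34.7 and 42.8 CPM in DTCs, against 61.2, 43.9 and 47.2 CPM in other cells. In other cells it had 56.02, 62.4 and 52.3 CPM at late L4, against 95.4, 93.0 and 86.4 CPM at early L4. The stages did not overlap in other cells, while the fractions overlapped at every stage. For pas-1 the late L3 values were 101, 79.1 and 76.5 CPM in DTCs, against 82.2, 81.5 and 95.4 CPM in other cells, and the adult values 92.6, 58.6 and 47.7 CPM in DTCs, against 61.9, 57.9 and 58.6 CPM in other cells. It had 52.2, 55.3 and 44.3 CPM in late L4 other cells, against 80.5, 71.0 and 75.8 CPM in early L4 other cells. The stages did not overlap in other cells here either, and the DTC libraries were all above those of other cells at early L4, with overlap at the other 3 stages.

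The regulatory particle contributed 2 of the calls. The lid scaffold gene rpn-5 had 88.7, 89.8 and 92.4 CPM in late L4 DTCs, against 138, 159 and 171 CPM in early L4 DTCs (-0.79 ± 0.21, adjusted p = 0.0334), and its late L4 libraries were nearly alike. The base ATPase gene rpt-2 had 111, 121 and 111 CPM at late L4, against 181, 169 and 179 CPM at early L4 (-0.63 ± 0.18, adjusted p = 0.0469). The calls of rpn-5, rpt-2 and pas-1 were lost in 10, 19 and 7 of the 24 fits with a library left out, and their direction was kept in all of them. At an unadjusted p under 0.05, 25 of the 33 members passed, all of them lower at late L4, as did 7.83% of all genes in that direction.

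At the other stages rpn-5 had 180.1, 164 and 135 CPM in DTCs at late L3, against 169.6, 151 and 143 CPM in other cells, and 114.9, 111 and 95.8 CPM in adult DTCs, against 114.5, 67.7 and 74.5 CPM in adult other cells. In other cells it had 92.5, 117 and 109 CPM at late L4, against 154, 118 and 119.8 CPM at early L4. Late L4 DTC libraries were the lowest of the DTC stages, and the late L4 libraries of other cells were also below those of early L4.

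Other cells had lower proteasome values at late L4 too, but no member passed the test. The 33 genes summed to 2199, 2388 and 2780 CPM in late L4 other cells, against 3387, 3369 and 3122 CPM in early L4 other cells, and the ratio of means was 0.746, or 0.697 without replicate 3 of late L4. All 33 log2 fold changes were negative, with a median of -0.42 (31 with RLE scaling, and 30 with a median of -0.27 without both libraries that stood apart), and in 20 genes the late L4 libraries lay below the early L4 libraries, beside 12.9% of all genes. By edgeR 0 members were called, where 0.243% of all genes were called lower and 1.85% higher, 12 members were lower at an unadjusted p under 0.05, beside 5.35% of all genes, and DESeq2 called 2. The log2 fold change was more negative in DTCs than in other cells in 27 of 33 genes, with a median difference of -0.27. Raw shares gave the opposite order, with 0.246, 0.274 and 0.291% in late L4 other cells, against 0.481, 0.496 and 0.435% in early L4 other cells, a ratio of 0.575 beside 0.62 in DTCs. Which fraction fell more thus depended on the scaling. In the joint test of stage changes between the fractions, over all 3 steps, 1 member passed, as described for rpt-2.

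**Figure D3:**
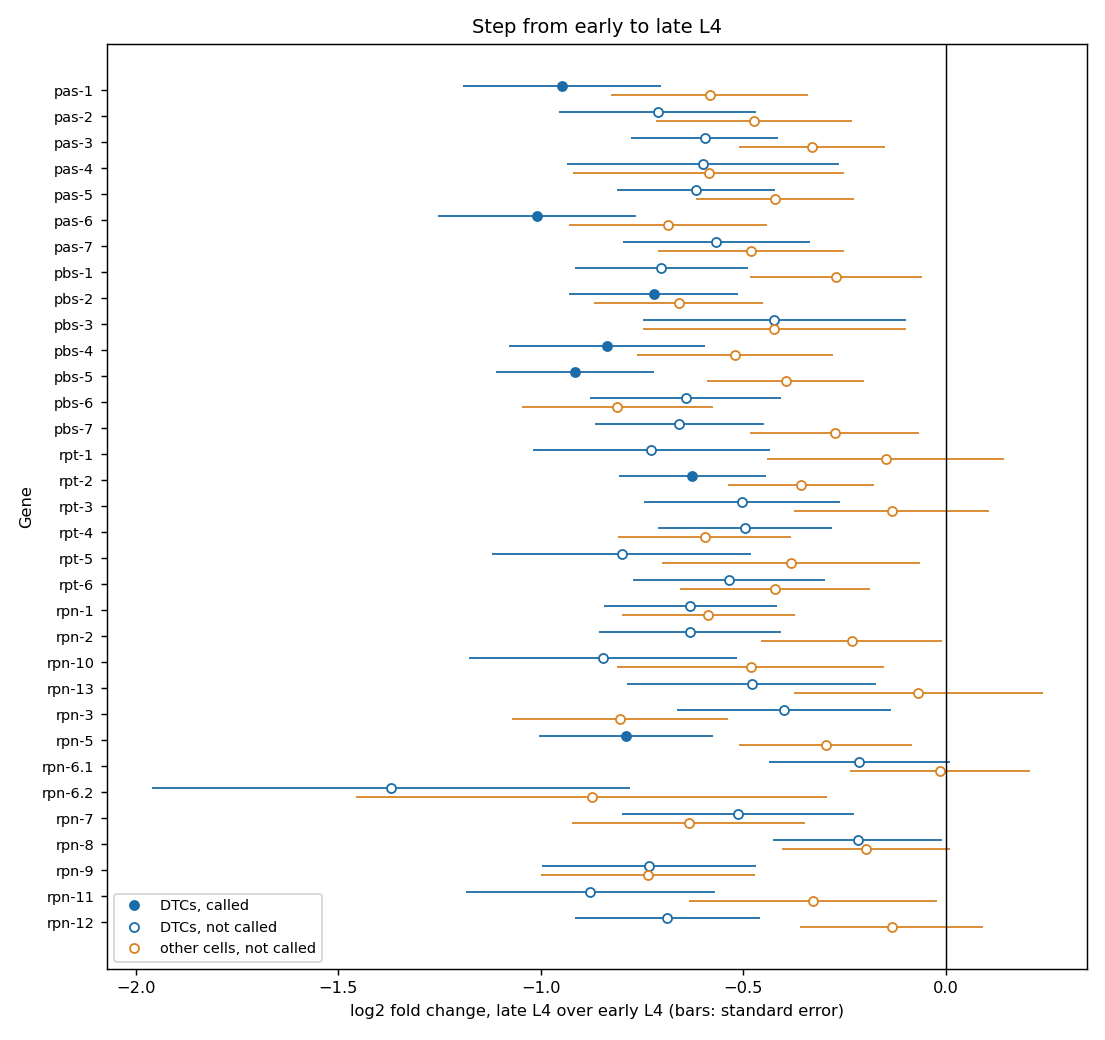
Log2 fold change of late L4 over early L4 for each of the 33 genes in DTCs (blue) and other cells (orange). Bars are approximate standard errors and filled points passed an adjusted p of 0.05. All points lie left of 0, the 7 filled ones are all DTC points, and in 27 genes the DTC point is further left.

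Several other quantities moved with this step. Total counts were 11325030 to 13419200 in late L4 DTC libraries, against 12527543 to 18000822 in early L4 DTC libraries. The 19 intestine markers in the table summed to 2338 to 3509 CPM in late L4 DTCs, against 503 to 616 CPM at early L4, with 6 of 19 called higher and vit-5 at 0 at early L4. The 20 body wall muscle markers summed to 25110 to 38400 CPM at late L4, against 13190 to 19640 CPM at early L4, with 2 called higher and 2 lower. The 49 sperm markers summed to 2140 to 4864 CPM, against 1162 to 2549 CPM, with 0 called by edgeR (9 at an unadjusted p under 0.05, beside 19.3% of all genes, and 2 called higher by DESeq2) and 0 of 49 at 0, and the 20 hypodermis and cuticle markers to 109 to 1184 CPM, against 966 to 2434 CPM, with 1 called higher and 3 lower. Ribosomal protein transcripts summed to 28140 to 43350 CPM at late L4, against 43600 to 52170 CPM at early L4. The 12 DTC markers summed to 29290 to 33430 CPM in late L4 DTCs, against 45530 to 56970 CPM in early L4 DTCs. The ratio of means was 0.631, with 2 called higher and 2 lower. The 36 germline and oocyte markers summed to 2068 to 2503 CPM at late L4, against 2665 to 3072 CPM at early L4, with 4 called higher and 1 lower. Ribosomal RNA took 7.39 to 10.7% of counts at late L4, against 10.8 to 14.3% at early L4, and mitochondrial genes took 0.71 to 0.84%, against 0.94 to 1.07%. None of these 5 ranges overlapped between the stages. Most of the DTC marker sum came from mig-6, at 20970 to 24830 CPM at late L4, against 30000 to 36480 CPM at early L4, and from nid-1. Neither was called at this step. The markers called higher were inx-8 (1.36) and inx-9 (1.35), and those called lower were hlh-12 (-4.38) and ina-1 (-1.13). The sum thus does not describe the list as a whole. The part of these quantities in the proteasome result was not tested, and fewer cells of a type cannot be told apart from less RNA per cell.

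The other steps between stages showed few or no called members. From late L3 to early L4 in DTCs 0 members were called (edgeR; 1.79% of all genes higher, 0.213% lower), 17 fold changes were positive and 16 negative, 3 members had an unadjusted p under 0.05 (17.5% of all genes), and DESeq2 called 2 higher. Between late L4 and adult DTCs 0 were called although 6.68% of all genes were higher and 6.12% lower in adults, 1 member had an unadjusted p under 0.05 (28.4% of all genes) and DESeq2 called 0. In other cells at early L4 against late L3 0 were called by edgeR, beside 0.201% of all genes higher and 0.16% lower, with 4 members at an unadjusted p under 0.05 (13% of all genes) and 0 called by DESeq2.

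The exception was rpn-6.1, the lid subunit that joins the regulatory particle to the core, in other cells of adults. It had 103, 119 and 152 CPM in adult other cells, against 61.4, 83.3 and 68.0 CPM in late L4 other cells (0.82 ± 0.23, adjusted p = 0.037), and the groups did not overlap. In this comparison 2.05% of all genes were called higher and 4.65% lower. The call was lost in 19 of the 24 fits with a library left out and under each of the 7 other alternatives, so it rests on the settings used.

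Between the fractions, most proteasome genes differed little. As the mean of the 4 stages, 6 of 33 members were called higher in DTCs and 1 lower, where 16.3% of all genes tested were called higher and 14.3% lower, so the share of members called higher was near the background. The median log2 fold change of DTCs over other cells was 0.11, beside -0.14 over all genes. The sign of this median depended on scaling: with RLE it was -0.08, with 22 of 33 genes negative and 1 called higher and 5 lower, while the median of all genes moved by a similar amount to -0.33. With each library left out in turn the median ran from -0.12 to 0.17. The calls of rpn-1 and rpn-6.2 in the mean were kept under every alternative tried for it.

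The gene rpn-1 encodes a large scaffold subunit of the base that docks ubiquitin-like proteins and lies on chromosome IV at 6906420 to 6909913, minus strand. At late L3 it had 362, 380.3 and 398 CPM in DTCs, against 205, 262 and 212 CPM in other cells, and at early L4 318, 327 and 325 CPM in DTCs, against 239, 184 and 173 CPM in other cells. At late L4 it had 209, 195 and 222 CPM in DTCs, against 123, 112 and 162 CPM in other cells. In each of these 3 stages every DTC library was above every library of other cells. In adults the fractions overlapped, with 162, 179 and 159 CPM in DTCs and 194, 119 and 124 CPM in other cells. The mean difference was 0.58 ± 0.11, adjusted p = 0.000339. It was 0.39 with RLE scaling and 0.34 to 0.67 with each library left out, always past the threshold.

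The other large scaffold of the base, rpn-2, had 406, 365 and 413 CPM at late L3 in DTCs, against 275, 282 and 271 CPM in other cells, and 371, 352 and 439 CPM at early L4 in DTCs, against 269.7, 238 and 215 CPM in other cells. The fractions did not overlap at either stage. At late L4 they overlapped, with 226 to 275 CPM in DTCs, against 146 to 301 CPM in other cells. In adults the order was reversed without overlap, with 168 to 198 CPM in DTCs, against 207 to 242 CPM in other cells. The mean difference over 4 stages was 0.29 ± 0.11, adjusted p = 0.0582 by edgeR, and did not pass. Summed over rpn-1, rpn-2, rpn-10 and rpn-13, the non-ATPase base genes reached 899, 887 and 1042 CPM in early L4 DTCs, against 671, 562 and 534 CPM in early L4 other cells, a ratio of 1.60. The base ATPases had a ratio of 1.16 and the lid one of 1.03 at that stage, while in adults the non-ATPase base genes had a ratio of 1.00.

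The ubiquitin receptor gene rpn-10 was also called higher in the mean. It had 120.3, 125 and 141 CPM in DTCs at late L3, against 98.4, 94.0 and 109.8 CPM in other cells, and 143, 126 and 178 CPM at early L4 in DTCs, against 107, 81.5 and 97.5 CPM in other cells. At late L4 it had 82.1, 82.4 and 84.6 CPM in DTCs, against 54.4, 67.3 and 83.2 CPM in other cells, and in adults 81.1, 73.0 and 90.8 CPM in DTCs, against 78.3, 19.4 and 34.3 CPM in other cells. The fractions were separated at the first 2 stages, and adult other-cell replicates 2 and 3 were far below replicate 1. The mean difference was 0.54 ± 0.17, adjusted p = 0.0172, and the call was lost in 10 of the 24 fits with a library left out.

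In the beta ring pbs-6, pbs-5 and pbs-2 were called higher in DTCs in the mean. The gene pbs-6, whose product has no active site, had 119.6, 93.4 and 103 CPM in DTCs at late L3, against 77.1, 83.3 and 89.3 CPM in other cells, and 131, 127 and 158 CPM in DTCs at early L4, against 93.3, 102 and 102 CPM in other cells. At late L4 it had 74.2, 101 and 91.2 CPM in DTCs, against 44.7, 71.1 and 53.6 CPM in other cells, and in adults 66.1, 59.8 and 74.7 CPM in DTCs, against 84.9, 55.4 and 46.6 CPM in other cells. It was separated at each larval stage and overlapped in adults, and the mean difference was 0.39 ± 0.12, adjusted p = 0.0152.

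The gene pbs-5 had 142.3, 131 and 137 CPM in DTCs at late L3, against 137, 155 and 139 CPM in other cells, and in early L4 other cells it was 94.3, 106 and 90.6 CPM, well below the DTC values at that stage. In late L4 other cells it was 59.3, 94.0 and 67.6 CPM, on both sides of the DTC values, and in adults it was 91.3, 111 and 112 CPM in DTCs, against 87.7, 76.9 and 66.4 CPM in other cells. It overlapped at late L3 and late L4 and was higher in every DTC library at early L4 and in adults, and the mean difference was 0.29 ± 0.10, adjusted p = 0.0279.

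Levels of pbs-2 were 73.0, 67.7 and 69.9 CPM in DTCs at late L3, against 76.7, 65.4 and 67.5 CPM in other cells, and in other cells 55.5, 57.3 and 47.7 CPM at early L4 and 28.1, 37.7 and 35.9 CPM at late L4. In adults it had 44.7, 39.9 and 45.1 CPM in DTCs, against 46.4, 37.1 and 35.2 CPM in other cells. All DTC libraries were above those of other cells at early and late L4, but not at late L3 or in adults, and the mean difference was 0.29 ± 0.10, adjusted p = 0.0424. The third active-site gene, pbs-1, had 113.3, 96.1 and 111 CPM in DTCs at late L3, against 126, 129.5 and 118 CPM in other cells, and the DTC libraries were all lower at this stage.

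In other cells pbs-1 was at 96.7, 97.0 and 79.2 CPM at early L4, below every DTC library, and at 79.95, 76.5 and 69.6 CPM at late L4. In adults it had 84.1, 75.2 and 78.5 CPM in DTCs, against 96.5, 114 and 72.6 CPM in other cells, with overlap. Its mean difference was 0.06 ± 0.11, adjusted p = 0.769, the smallest among the active-site genes. With RLE scaling, the single member called higher in the mean was rpn-1, and the calls of pbs-6, pbs-5 and pbs-2 were lost in 11, 15 and 17 of the 24 fits with a library left out.

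The paralogs rpn-6.1 and rpn-6.2 were called in opposite directions between the fractions. The gene rpn-6.1, on chromosome III at 6959110 to 6962001, minus strand, had 188, 185 and 131 CPM in DTCs at late L3, against 107, 96.9 and 83.0 CPM in other cells, and 97.1, 94.6 and 109 CPM at early L4 in DTCs, against 69.6, 76.99 and 68.2 CPM in other cells. The fractions were separated at both stages. At late L4 it had 63.7, 90.3 and 105 CPM in DTCs, and in adults 108, 112 and 103 CPM, within or near the values of other cells given above. It was called higher in DTCs in the mean (0.34 ± 0.11, adjusted p = 0.0256), a call lost in 12 of the 24 fits with a library left out.

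The gene rpn-6.2, on chromosome III at 8999817 to 9001999, minus strand, was lower in DTCs in the mean. It had 20.1, 9.48 and 12.8 CPM in DTCs at late L3, against 23.7, 21.9 and 63.3 CPM in other cells, and 45, 38.03 and 20.5 CPM in DTCs at early L4, against 110.4, 104.3 and 86.5 CPM in other cells. At late L4 it had 13.6, 17.3 and 9.14 CPM in DTCs, against 37.2, 30.5 and 96.6 CPM in other cells, and in adults 6.03, 12.9 and 17.6 CPM in DTCs, against 18.4, 37.0 and 6.61 CPM in other cells. Every DTC library was below every other-cell library at each larval stage, and in adults the fractions overlapped. The mean difference was -1.43 ± 0.30, adjusted p = 0.00103, and it ran from -1.74 to -1.22 with each library left out, and the difference was -1.05 without both libraries that stood apart, with the call kept.

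Sperm markers followed rpn-6.2 in some groups and not in others. Within other cells of late L3 and of late L4, replicate 3 had the most rpn-6.2 and also the most summed sperm markers. At early L4 in both fractions, and at late L3 in DTCs, the libraries had the same order for both quantities. In late L4 DTCs and in adult DTCs the highest library differed between them. Summed sperm markers were 1162 to 2549 CPM in early L4 DTCs, against 5203 to 7780 CPM in early L4 other cells, and 2140 to 4864 CPM in late L4 DTCs, against 10290 to 25590 CPM in late L4 other cells. Sperm markers were thus higher at late L4 than at early L4 in both fractions, while rpn-6.2 averaged 13.3 CPM in late L4 DTCs, against 34.5 CPM in early L4 DTCs, and 54.8 CPM in late L4 other cells, against 100.4 CPM in early L4 other cells. In adult other cells rpn-6.2 was highest in replicate 2 and summed sperm markers in replicate 1, at 2298 CPM against 1724 CPM in replicate 2. Of the 49 sperm markers, 40 were lower and 0 higher in DTCs in the mean, and 14 were at 0 in late L3 DTCs. Among all genes 14.3% were called lower and 16.3% higher in the mean. Of the other lists, 14 of 20 muscle markers, 20 of 36 germline and oocyte markers, 6 of 20 hypodermis markers and 3 of 3 coelomocyte markers were lower in DTCs, while 3 muscle markers were higher. Intestine markers had 1 of 19 higher and 2 lower and neuron markers 4 of 20 higher and 1 lower. The part of these tissues in the differences between fractions was not tested.

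**Figure D4:**
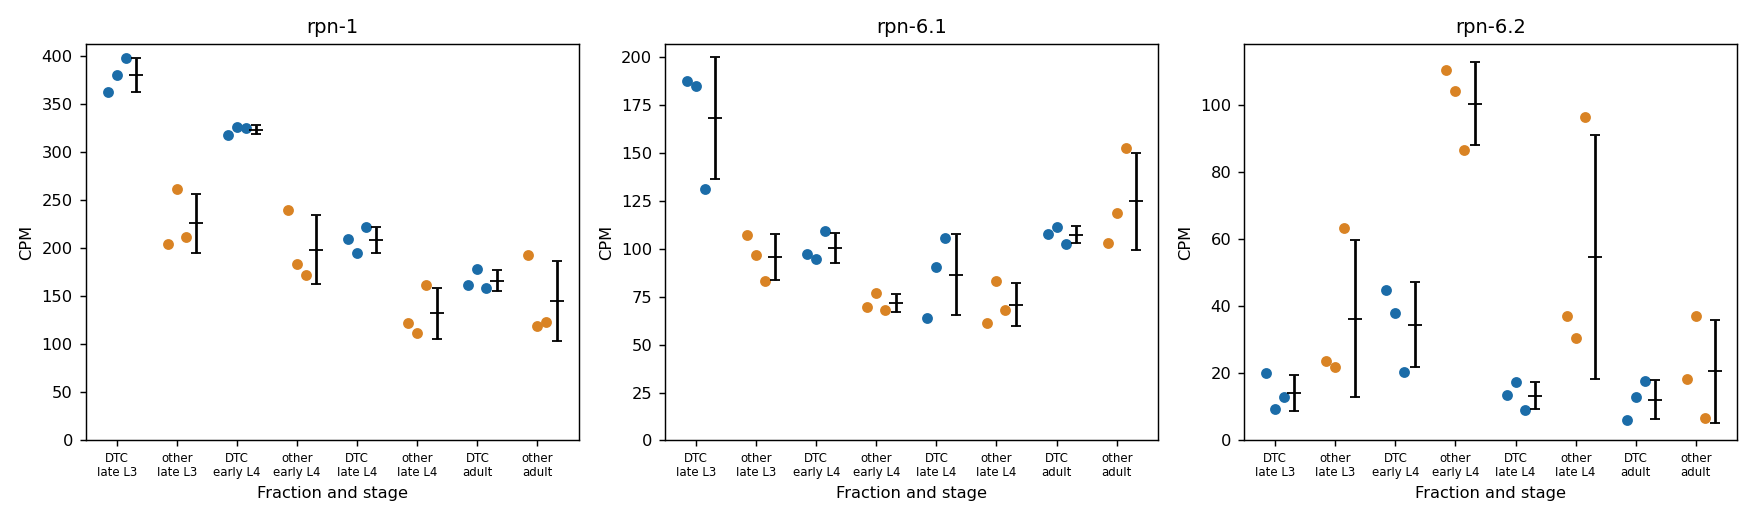
CPM of rpn-1, rpn-6.1 and rpn-6.2 in each library, by stage and fraction (blue, DTCs; orange, other cells); black marks are the mean and SD of 3 libraries. For rpn-1 the DTC points lie above those of other cells at late L3, early L4 and late L4, and for rpn-6.2 they lie below them at the same stages.

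Stage by stage, few members were called between the fractions. At late L3 the 3 genes called higher in DTCs were rpn-6.1 (0.81 ± 0.23, adjusted p = 0.021), rpn-1 (0.75 ± 0.21, adjusted p = 0.0243) and rpt-2 (0.61 ± 0.18, adjusted p = 0.0299), where 6.03% of all genes were called higher and 7.33% lower. At early L4 pbs-5 (0.66 ± 0.19, adjusted p = 0.0316) and rpn-1 (0.70 ± 0.21, adjusted p = 0.0368) were higher, beside 9.4% of all genes higher and 1.65% lower. In 18 of 33 genes every early L4 DTC library was above every other-cell library, beside 21.1% of all genes. At late L4 rpn-1 was higher (0.66 ± 0.21, adjusted p = 0.0495) and rpn-6.2 lower (-2.04 ± 0.60, adjusted p = 0.0309), beside 9.19% of all genes higher and 2.61% lower. In adults edgeR called 0 members, beside 8.19% of all genes higher and 5.12% lower, 4 members had an unadjusted p under 0.05 (29.5% of all genes), and DESeq2 called 2 higher and 1 lower. Adult DTC libraries carried 38030 to 181600 CPM of intestine markers, against 8997 to 36090 CPM in adult other cells, with 4 of 19 called higher. Body wall muscle markers were at 57850 to 76490 CPM, against 42930 to 47190 CPM, with 2 of 20 called higher. Germline and oocyte markers were at 1654 to 3866 CPM, against 5848 to 10310 CPM, with 21 of 36 called lower.

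These single-stage calls depended on scaling. With RLE none of the 6 calls of higher levels in DTCs at late L3, early L4 and late L4 remained, and the call of rpn-6.2 at late L4 was lost without both libraries that stood apart. At early L4 the 33 genes summed to a mean of 4085 CPM in DTCs, against 3293 CPM in other cells, a ratio of 1.24. As a share of raw counts the order was reversed, with 0.389, 0.378 and 0.388% in DTCs, against 0.481, 0.496 and 0.435% in other cells. TMM factors were 0.86 to 1.00 in early L4 DTC libraries and 1.40 to 1.47 in those of other cells, so the level of the whole proteasome between fractions follows the scaling chosen.

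The stage changes of 1 member differed between the fractions. In the joint test of the 3 steps, rpt-2 passed (F = 5.91, adjusted p = 0.0403), where 13.9% of all genes did. This base ATPase gene had 241, 219 and 210.2 CPM in DTCs at late L3, against 130.3, 147 and 161 CPM in other cells, and the fractions did not overlap. In adults it had 114, 93.2 and 113.2 CPM in DTCs, against 151, 154 and 126 CPM in other cells, again without overlap and in the opposite order. At early L4 other cells had 161, 173 and 139 CPM and at late L4 103, 129 and 138 CPM, and both ranges overlapped those of the DTCs. The call was lost in 20 of the 24 fits with a library left out and with RLE scaling, while DESeq2 called 5 members.

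The balance between core and regulatory transcripts does not depend on library scaling, since both sums come from the same library. Its log2 ratio, of summed CPM of core genes over summed CPM of regulatory genes, was close in the fractions when averaged over stages, with a DTC minus other-cell difference of -0.005 beside a pooled SD within groups of 0.13. At late L3 it was -0.95, -0.97 and -1.04 in DTCs, against -0.77, -0.73 and -0.70 in other cells. In adults it was -0.68, -0.74 and -0.78 in DTCs, against -0.81, -0.89 and -1.16 in other cells. The DTC libraries were thus all lower in core share at late L3 and all higher in adults, with mean differences of -0.25 and 0.22. Without rpn-1 and rpn-2, left out after their values were seen, the late L3 ratio was -0.51, -0.51 and -0.54 in DTCs. In other cells it was then -0.42, -0.35 and -0.34. In adults it was -0.34, -0.35 and -0.42 in DTCs, against -0.44, -0.50 and -0.83 in other cells. At early L4 every DTC library was then above every other-cell library, at -0.35, -0.40 and -0.44 against -0.66, -0.52 and -0.48. At late L4 the fractions overlapped.

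With all members summed, the fractions overlapped at early L4, with a mean difference of 0.03 that ran from -0.04 to 0.08 with each library left out. At late L4 the ratio was -1.05, -0.87 and -0.99 in DTCs, against -0.79, -0.79 and -1.27 in other cells, where replicate 3, which stood apart, had the lowest ratio of all libraries. The mean difference was -0.02 with it, and -0.18 without it, when all 3 DTC libraries lay below the other 2. At late L3 the difference was between -0.27 and -0.23 with each library left out. In adults it dropped to 0.12 without other-cell replicate 3 and was 0.19 to 0.29 without any other single library. When every gene was given the same weight, as the difference of mean log2 CPM of core and regulatory genes, the late L3 difference was -0.11, again with no overlap, and the adult one was 0.21 with fractions that met at -0.21. On this measure the early L4 difference was 0.10, with all DTC libraries higher although the fractions met at -0.28. The late L4 one was 0.10 with overlap, and -0.06 without other-cell replicate 3. Within DTCs the ratio was above late L3 in every early L4 library and above late L4 in every adult library. No test was run on these ratios.

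**Figure D5:**
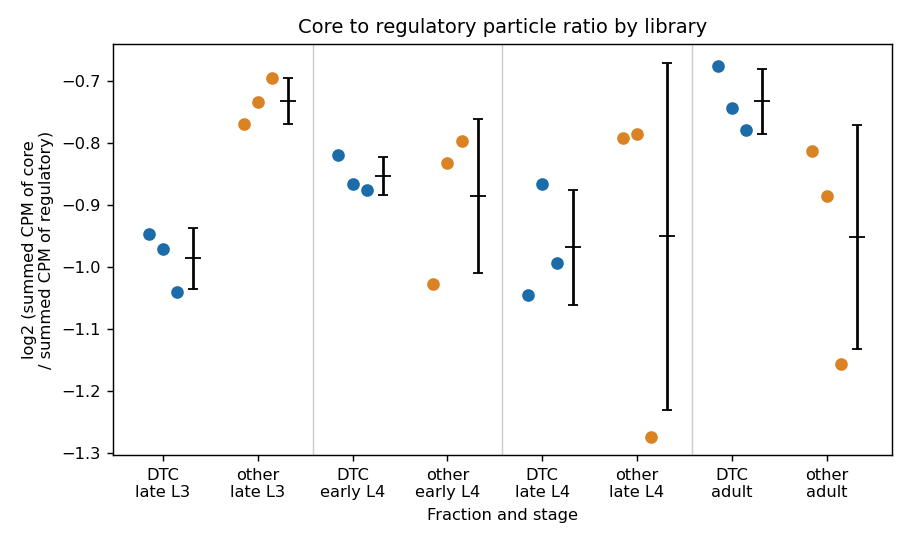
Log2 ratio of summed core CPM to summed regulatory CPM in each library, by stage and fraction (blue, DTCs; orange, other cells); black marks are the mean and SD of 3 libraries. The DTC points lie below the other-cell points at late L3 and above them in adults, and they overlap at early L4. At late L4 they overlap only through other-cell replicate 3, at -1.27, and the other 2 other-cell points lie above all DTC points.

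The genes that act around the proteasome were counted by list. In the mean of the 4 stages 16.3% of all genes were called higher in DTCs and 14.3% lower. Of 6 genes for SKN-1A activation, 4 were called higher in DTCs in the mean of the 4 stages, with a median log2 fold change of 0.70, and the same count was obtained with RLE scaling (median 0.51). They were the protease gene ddi-1 (1.17 ± 0.18, adjusted p = 3.31e-05), the ER quality control genes sel-9 (0.67 ± 0.12, adjusted p = 0.000167) and sel-1 (0.74 ± 0.14, adjusted p = 0.000465), and skn-1 (0.84 ± 0.16, adjusted p = 0.000465), whose gene count does not separate the SKN-1A form. The gene png-1 had a value of 0.21 and was not called.

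Over the step at which the subunit transcripts fell in DTCs, the 6 SKN-1A genes had a median log2 fold change of -0.27. By edgeR 1 of them was called higher and 0 lower, beside 3.8% of all genes higher and 1.77% lower. The called gene was ddi-1, which rose. It had 153, 148 and 357 CPM in late L4 DTCs, against 57.6, 62.1 and 73.4 CPM in early L4 DTCs (1.77 ± 0.36, adjusted p = 0.00414), and the groups did not overlap. In adult DTCs it had 104.2, 46.6 and 36.3 CPM and fell relative to late L4 (-1.81 ± 0.36, adjusted p = 0.00214). Other cells stayed between 29.4 and 48.19 CPM at all 4 stages, and the rise of ddi-1 was 1.74 to 1.92 and stayed called with RLE scaling, without rRNA and mitochondrial genes, by DESeq2 and with the replicate block. The gene skn-1 had 233, 219 and 289.6 CPM in late L4 DTCs, against 143, 129 and 190.4 CPM at early L4 (0.68 ± 0.32, adjusted p = 0.247), a difference that did not pass although the groups did not overlap.

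Ubiquitin, E1 and E2 genes had 9 of 24 members higher in DTCs in the mean and 1 lower (7 and 2 with RLE scaling). Among all genes 16.3% were called higher and 14.3% lower. The leading ones were the E2 variant gene uev-1 (1.05 ± 0.14, adjusted p = 8.55e-06), the E2 genes ubc-3 (0.89 ± 0.12, adjusted p = 1.28e-05) and let-70 (0.63 ± 0.10, adjusted p = 7.90e-05), and the polyubiquitin gene ubq-1 (0.72 ± 0.14, adjusted p = 0.00044). Cullin ligase genes had 7 of 28 higher and 1 lower (5 and 3 with RLE scaling), led by the SKP1-related genes skr-1 (0.90 ± 0.11, adjusted p = 2.39e-06) and skr-3 (1.70 ± 0.22, adjusted p = 6.14e-06). These 2 groups had medians of 0.28 and 0.27, and at late L4 against early L4 in DTCs of -0.09 and 0.01, beside -0.64 for the subunits. At that step ubc-6 was the 1 called gene of the ubiquitin list (-0.89 ± 0.25, adjusted p = 0.0419), a call lost with RLE scaling (adjusted p = 0.0779), without rRNA and mitochondrial genes and with the replicate block, and kept by DESeq2.

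Proteasome-associated proteins and assembly factors had 3 of 9 higher in the mean, namely aip-1 (1.12 ± 0.18, adjusted p = 7.00e-05), hecd-1 (0.63 ± 0.12, adjusted p = 0.000541) and ubql-1 (0.66 ± 0.15, adjusted p = 0.00244), and 1 lower, psme-3 (-0.64 ± 0.18, adjusted p = 0.0114), which encodes an alternative cap of the core. The COP9 signalosome, whose subunits resemble those of the lid, had 1 of 7 higher, csn-2 (0.67 ± 0.17, adjusted p = 0.00436). Among all genes 16.3% were called higher and 14.3% lower, so the COP9 count was near the background. The CDC-48 complex had 0 of 13, the CCT chaperonin 0 of 8 and ribosomal proteins 0 of 78 called by edgeR, with 0, 1 and 2 at an unadjusted p under 0.05 (40.6% of all genes by edgeR). By DESeq2 2, 3 and 45 were lower, and the share of all genes called by DESeq2 is not given here. At late L4 against early L4 in DTCs the medians were -0.80 for the associated proteins, -0.71 for the COP9 signalosome, -0.38 for the CDC-48 complex, -0.45 for ribosomal proteins and 0.12 for the CCT chaperonin, beside -0.64 for the subunits. By edgeR 0 members of these lists were called at this step, beside 3.8% of all genes higher and 1.77% lower. At an unadjusted p under 0.05 there were 6, 3, 5, 15 and 0 (19.3% of all genes). DESeq2 called 1 associated gene higher and 1 lower, 1 COP9 gene lower and 0 in the others.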

How the data were processed

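The authors deposited raw counts (whole numbers) for 46778 gene IDs in 24 library columns. The submitters' processing notes name FastQC, cutadapt, Bowtie2 and HTSeq as tools and ce11 as the build, without roles. Versions and the strand setting: not given in the sources used here. Columns were mapped to samples by library name. Symbols were known for 43818 IDs, and 46603 IDs lay in the annotation (Ensembl release 115, WBcel235, the ce11 assembly), which gave positions and exon lengths.

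From the deposited counts, genes were kept by filterByExpr (16887 genes) with TMM factors, and edgeR 4.0.16 (R 4.3.3) gave quasi-likelihood tests from a single fit of 8 group means. For each gene the fit shares 1 estimate of spread over all groups. The common biological coefficient of variation, 1 value for all genes, was 0.835, and the tests used spreads estimated gene by gene. Values after ± are approximate standard errors of log2 fold changes, back-calculated as the absolute log2 fold change divided by the square root of the F statistic. The word "called" means a Benjamini-Hochberg adjusted p under 0.05 over all genes tested. The alternatives were RLE scaling, no filter, DESeq2 1.42.0, a fit of only the groups compared, a replicate block, removal of rRNA and mitochondrial genes, and leaving out each library; leaving out both libraries that stood apart was chosen after seeing the data. The fit was also run on counts simulated with a dispersion, the square of this coefficient, of 0.05, well below that of these data. That run checked the code and does not bear on the calls. Correlations between same-numbered libraries (deviations from group means) were -0.19 to 0.28 over 30 library pairs, of which 9 were above 0.1. They were above 0.1 for all 3 numbers only between the fractions at late L3, while the highest lay between early and late L4 DTCs. Deviations within a group of 3 sum to 0, so the values of the 3 numbers are not independent. Correlations of different-numbered libraries are not given here. Whether the numbers pair the samples at any stage is therefore not known.

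The members and gene lists were chosen with earlier results of these data known. Values in every library are given for each called member, for rpn-6.1 and rpn-6.2 and for pbs-1, pbs-2 and pbs-5. List genes are named where called, at most 4 a list by adjusted p in the mean. The genes rpn-2, rpn-3, rpn-8, png-1 and ubc-6 were named after their values were seen. In all, 7 listed genes matched no symbol and were left out.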

Additional observations from a re-analysis of the deposited data

Results flagged for a closer look

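The core to regulatory ratio differed between the fractions in opposite directions at the first and last stage. Its log2 value was lower in DTCs than in other cells by a mean difference of -0.254 at late L3, with every DTC library below every other-cell library, and the difference was 0.219 in adults, with every DTC library above. The difference between these stages was not tested, and in adults the value was 0.117 without other-cell replicate 3. Adult DTC libraries also had 38030 to 181600 CPM of intestine markers, against 8997 to 36090 CPM in adult other cells. Body wall muscle markers were at 57850 to 76490 CPM, against 42930 to 47190 CPM, and germline and oocyte markers at 1654 to 3866 CPM, against 5848 to 10310 CPM. Summed DTC markers were at 2908 to 4042 CPM in adult DTCs, against 29290 to 33430 CPM in late L4 DTCs. The part of these differences in the ratio was not tested.

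The stage changes of rpt-2 differed between DTCs and other cells in the joint test over the 3 steps (edgeR, adjusted p = 0.0403). The call was lost in 20 of the 24 fits with 1 library left out, in which F ran from 4.09 to 6.48.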

How the results depend on the processing

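Counts below are members called by edgeR unless DESeq2 is named. The shares of all genes printed in this report are those of the main edgeR fit. Counts of members under DESeq2 and the other alternatives have no such share beside them, so they cannot be read against a background. The fall of proteasome transcripts in DTCs from early to late L4 kept its negative sign in all 33 genes under every alternative, with medians of -0.70 to -0.49, but its count of 7 was 3 with RLE, 0 with no filter, 12 by DESeq2, 4 without rRNA and mitochondrial genes and 2 without both libraries that stood apart (1 to 9 with each library left out). The mean of DTCs over other cells, with 6 higher and 1 lower, became 1 higher and 5 lower with RLE and by DESeq2, 2 higher with no filter and 1 higher without rRNA and mitochondrial genes, and 1 to 7 higher and 1 to 5 lower with each library left out. At late L3 the 3 higher became 0 with RLE, with no filter, by DESeq2 (3 lower), without rRNA and mitochondrial genes, in a fit of only the groups compared and without both libraries that stood apart (0 to 3 with each library left out). At early L4 the 2 higher became 0 with RLE, no filter, DESeq2 (1 lower) and without rRNA and mitochondrial genes, and 10 higher and 1 lower in a fit of only these groups (0 to 3 higher and 0 to 1 lower with each library left out). At late L4 the 1 higher became 0 with RLE, no filter, DESeq2, removal of rRNA and mitochondrial genes and only these groups, and the 1 lower became 4 by DESeq2 and 0 without both libraries that stood apart (0 to 1 each with a library left out). In adults RLE gave 1 higher and DESeq2 2 higher and 1 lower (0 to 2 higher and 0 to 2 lower with a library left out). DESeq2 gave 2 higher in DTCs at early L4 against late L3, and 2 members were lower in DTC adults against late L4 without rRNA and mitochondrial genes (0 to 1 with a library left out). In other cells the early L4 step gave 1 higher without both libraries that stood apart, the late L4 step 2 lower by DESeq2 (0 to 1 with a library left out), and the adult step 0 higher under all 7 alternatives and 4 lower by DESeq2 (0 to 1 higher and 0 to 6 lower with a library left out). The joint count of 1 was 0 with RLE, with no filter and without rRNA and mitochondrial genes, and 5 by DESeq2 (0 to 1 with a library left out). The median of the members in the mean, 0.11, was -0.08 with RLE and by DESeq2 and -0.03 without rRNA and mitochondrial genes. The cause of these shifts was not tested. No called gene reversed, and the core to regulatory difference averaged over 4 stages stayed between -0.046 and 0.076. The mean and joint tests use all groups, so no fit of only the groups compared exists for them. The lowest count of a member in a library was 64.

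With replicate number as a block, 4 members were lower in DTCs at the early to late L4 step, 0 higher and 0 lower at late L4 between the fractions, 0 higher in other-cell adults against late L4, and 0 passed the joint test; 15 of 23 calls were kept. The block gave each replicate number the same effect in all 8 groups, although whether the numbers pair the libraries at any stage is not known. It kept the 3 calls at late L3, but a pairing of the libraries within that stage only was not tested.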
